A study of Mus musculus with 2 samples.

Results

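The transcripts described here are those that the array names by a RIKEN cDNA clone, such as 1700028B04Rik. They were chosen as all non-control probes whose gene name ends in "Rik" except 1500015O10Rik and 8430408G22Rik, which gave 3682 probes under 3067 names out of 55674 probes analysed. Total RNA came from the hippocampus of ICR mice, an outbred strain, 8 weeks after a sham operation or after 5/6Nx (5/6 nephrectomy, which removes most of the kidney mass to model chronic kidney disease). Each group is 1 sample on 1 array of 60-base probes with Cy3 label, and neither the number of animals behind a sample nor their age is given in the sources used here. There are no replicates, so no difference between the groups could be tested, and every value describes these 2 arrays. The labels give the source as hippocampus, while the RNA kit they name is one for cells.

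RIKEN names were given to full-length mouse cDNA clones sequenced before the function of the transcript was known, and the first characters of a name stand for the library the clone came from. Many of these transcripts were later found to encode proteins and received gene symbols, while others are long non-coding RNAs or single clones that no gene model took up. The accession printed beside each probe on the array records this state at the time of the design. NM_ marks a RefSeq messenger RNA, NR_ a RefSeq non-coding RNA, and AK the deposited sequence of a single full-length clone. Of the members, 1406 probes carried an NM_, 645 an NR_ and 1188 an AK accession, and the remaining 443 carried predicted, Ensembl or other accessions.

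The probe sequences below, copied from the scanner files 5′ to 3′, belong to some of the non-coding and single-clone members named for high or low differences or bright signals, and they show which stretch each value rests on. They are not a ranking: 2900057B20Rik, with the highest measured difference of the NR_ members, and 1600029O15Rik, the brightest of them, are described below by their values alone. Capitals mark AATAAA or ATTAAA, the hexamers that precede many mammalian polyadenylation sites. E430022K19Rik had the largest difference of all measured members, and E130116L18Rik the largest of those above background on 1 array. The AK sequence printed for E430022K19Rik is that of a neonate thymus clone with another clone number. 1700080G18Rik and 4930553P18Rik, both from adult testis, are AK clones with a high and a low difference. 4931440P22Rik, 1810020O05Rik, 2610507I01Rik and 1600029I14Rik are NR_ members with high or low differences. 1700028B04Rik, A530030E21Rik and Norad (2900097C17Rik) were among the brightest.
E430022K19Rik: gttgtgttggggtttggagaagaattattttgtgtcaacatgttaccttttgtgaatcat
E130116L18Rik: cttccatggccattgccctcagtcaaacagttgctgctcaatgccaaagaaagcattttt
1700080G18Rik: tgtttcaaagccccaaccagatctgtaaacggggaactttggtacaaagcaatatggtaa
4930553P18Rik: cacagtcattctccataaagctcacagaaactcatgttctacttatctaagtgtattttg
4931440P22Rik: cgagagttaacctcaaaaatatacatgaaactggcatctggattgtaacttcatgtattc
1810020O05Rik: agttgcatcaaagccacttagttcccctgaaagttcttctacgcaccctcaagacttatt
2610507I01Rik: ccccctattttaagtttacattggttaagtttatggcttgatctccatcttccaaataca
1600029I14Rik: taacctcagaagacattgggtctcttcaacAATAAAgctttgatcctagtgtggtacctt
1700028B04Rik: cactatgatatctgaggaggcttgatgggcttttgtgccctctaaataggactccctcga
A530030E21Rik: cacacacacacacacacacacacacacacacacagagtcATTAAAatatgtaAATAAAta
2900097C17Rik: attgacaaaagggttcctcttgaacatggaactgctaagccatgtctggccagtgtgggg
On mm9, the build of the scanner files, these probes lie at chr6:8471245-8471304 on the plus strand for E430022K19Rik, at chr5:24727732-24727791 on the minus strand for E130116L18Rik and at chr6:29997533-29997592 on the minus strand for 1700080G18Rik. The probe of 4930553P18Rik lies at chr6:85959222-85959281 (plus), that of 4931440P22Rik at chr3:65331506-65331565 (minus) and that of 1810020O05Rik at chr6:87625779-87625838 (minus). The probe of 2610507I01Rik lies at chr11:59011304-59011363 (minus) and that of 1600029I14Rik at chr9:99375111-99375170 (plus). The bright probes lie at chr7:29282500-29282559 (plus) for 1700028B04Rik, at chr16:19244060-19244119 (plus) for A530030E21Rik and at chr2:156214413-156214472 (minus) for Norad. The probe of A530030E21Rik opens with a run of alternating c and a. No annotation on mm9 was at hand, so exons and introns were not assigned to these probes.

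Of the members shown, 1600029I14Rik holds AATAAA, and A530030E21Rik holds both hexamers. Over all members, searched on the probe strand only, 15.8% of NM_, 22.8% of NR_ and 25.5% of AK probes held at least 1 of AATAAA and ATTAAA. With other names these shares were 17.4%, 17.0% and 19.3%, and over all probes on the array 13.7%. The NM_ members thus lay below other names of their class, and the NR_ and AK members above theirs. The median GC content was 41.7% for NM_, 40% for NR_ and 38.3% for AK members. With other names it was 41.7%, 41.7% and 40%, and over all probes 43.3%. A match of these letters is a description of the probe and not of a polyadenylation site.

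The arrays differed in marker genes of cell types that border the hippocampus. Of 12 choroid plexus epithelium markers, 11 were at least 2-fold higher in 5/6Nx, with a summed processed signal of 6094 in sham and 213930 in 5/6Nx. The 8 measured markers of blood cells were all lower by 2-fold or more, from 306140 to 21528 summed over the 9 on the array, as were all 8 leptomeningeal fibroblast markers, from 66929 to 13719. The 10 hippocampal excitatory neuron markers were measured on both arrays with a median difference of -0.02 and a range from -1.12 to 0.66. Of these, 2 were at least 2-fold lower and 0 higher, with a summed signal of 132720 in sham and 97560.5 in 5/6Nx. The 9 interneuron markers had a median of -0.54, with 1 lower and 0 higher. Their summed signal was 196991 in sham and 122024 in 5/6Nx. The part of these cell types in the results below was not tested, and fewer cells of a type cannot be told apart from less RNA per cell.

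RIKEN clone transcripts were widely detected in both hippocampus samples, most often where the clone had become a RefSeq messenger RNA. A probe counts as detected where the scanner software marks its signal as well above background. In sham, 77.6% of NM_, 60.8% of NR_ and 66.5% of AK members were detected, and in 5/6Nx 77.7%, 59.7% and 68.0%. The order of the classes was thus NM_, AK, NR_ on both arrays, and the arrays differed less within a class than the classes did. Probes with other names were detected more often in every class and on both arrays, at 82.8% and 82.2% for NM_, 67.1% and 65.7% for NR_ and 71.0% and 71.4% for AK. On both arrays together 2440 member probes under 2029 names were detected, and only these entered the medians and counts of differences below, while 1032 were detected on neither array.

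**Figure D1:**
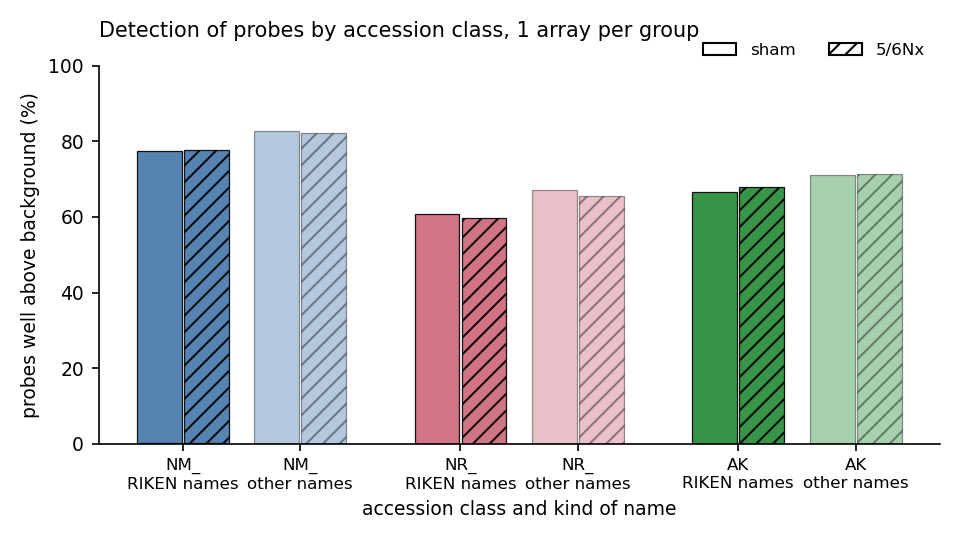
Bars give the share of probes well above background (percent) on the sham array (plain) and the 5/6Nx array (hatched), for members and for probes with other names, by accession class. The NR_ members sit lowest at 60.8% and 59.7%, the NM_ members at 77.6% and 77.7%.

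The detected members were also dim where they were non-coding or single clones. The signal is given as the log2 of the processed intensity relative to the array's 75th percentile, averaged over both arrays. Its median over measured members was -0.72 for NM_, -2.73 for NR_ and -2.59 for AK. With other names the medians were -0.25, -2.21 and -2.58, so the AK class was equally dim under either kind of name. The probe with the brightest NM_ signal was 2610028H24Rik, at 358894 in sham and 349174 in 5/6Nx, a difference of 0.16. Medag (6330406I15Rik), a gene linked to fat cell formation, followed at 257734 and 273994. Among NR_ members 1600029O15Rik was brightest at 64254 and 53742, a difference of -0.06. Norad (2900097C17Rik), a cytoplasmic non-coding RNA that binds Pumilio proteins, lay at 57917 and 59283, a difference of 0.24, and its 3 other measured probes ranged from 0.08 to 0.55. The brightest AK clones were 1700028B04Rik from testis, at 168713 and 152982, and A530030E21Rik from aorta and vein, at 145687 and 161465. The array describes the product of 1700028B04Rik as similar to NADH-ubiquinone oxidoreductase ASHI, and the probe of A530030E21Rik opens with alternating c and a. Whether other transcripts add to these signals was not tested. These bright members of every class differed by at most 0.35 between the arrays. The sign of such small differences depends on the scaling: 2610028H24Rik stood at -0.15 after quantile normalization and in the authors' table, and 1700028B04Rik, at 0.06 here, lay below 0 in both and with median scaling.

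Non-coding and single-clone members stood higher in 5/6Nx than in sham, whereas members with a messenger RNA accession were centred near 0. The median difference, 5/6Nx minus sham on the log2 scale, was 0.01 for NM_ (quartiles -0.29 and 0.29), 0.23 for NR_ (-0.12 and 0.62) and 0.34 for AK (-0.01 and 0.70). Over all 38536 measured probes it was 0.07. Values above 0 were found for 51.4% of NM_, 67.3% of NR_ and 74.3% of AK members, against 57.2% of all measured probes. The position of 0 depends on the scaling. With each array scaled to its median, which lowers every difference by the same amount, the all-probe median moved from 0.07 to -0.08 and that of the NM_ members to -0.15, while NR_ members stood at 0.07 and AK members at 0.18.

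A difference of at least 2-fold, a size and not a test, was reached upwards by 48 of 1060 NM_ members (4.53%), 56 of 367 NR_ members (15.3%) and 79 of 762 AK members (10.4%). The same size was reached by 5.17% of all measured probes. Downwards it was reached by 38 NM_ (3.58%), 14 NR_ (3.81%) and 16 AK members (2.10%), against 3.23% of all measured probes. The NM_ shares thus lay near those of the whole array, the NR_ and AK shares upwards lay above it, and the AK share downwards lay below it. Of the 2-fold calls, 80.0% of NR_ and 83.2% of AK members were higher. Scaling to the median lowered these to 72.6% and 68.1%, and brought the NM_ members from 55.8% to 39.8%. Over all members 199 probes were higher and 75 lower. The 443 members with other accessions had a median of 0.23, with 16 higher and 7 lower. Just inside the threshold stood Henmt1 (4921515J06Rik), with 77.7 in sham and 135 in 5/6Nx, and Acp7 (C330005M16Rik), with 158 and 68.8. Just outside it stood 4930474G06Rik, with 48.9 and 85.0, and 2610316D01Rik, with 337 and 147.

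**Figure D2:**
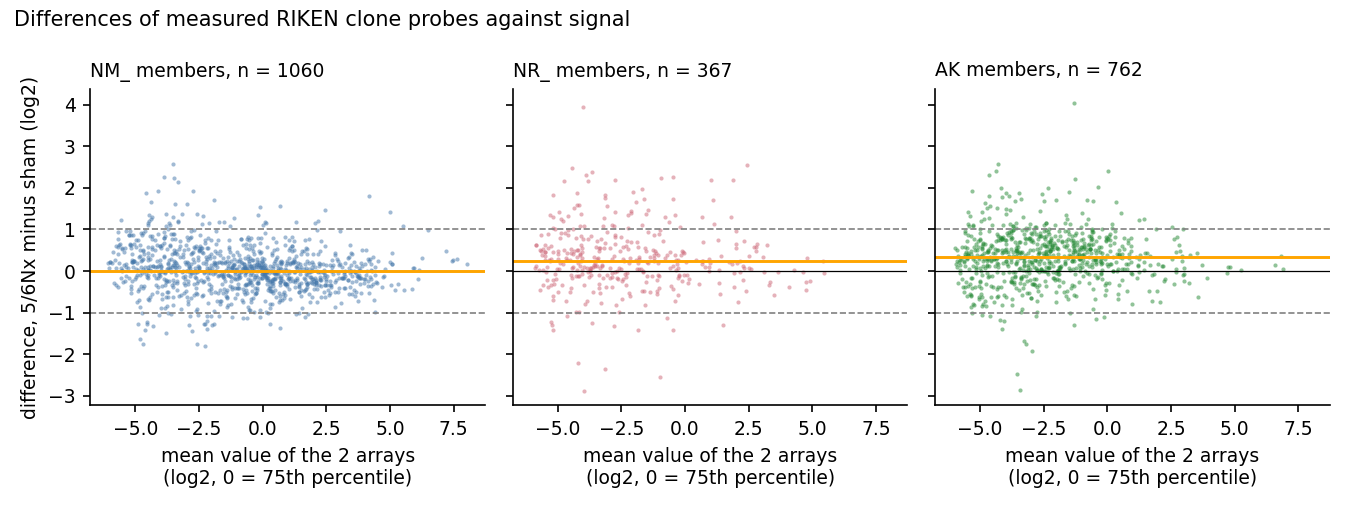
Each point is a member probe measured on both arrays, with its mean value on the x axis (log2, 0 at the 75th percentile of the array) and its difference on the y axis (log2, 5/6Nx minus sham), in a panel per accession class. The orange line is the class median (0.01 for NM_, 0.23 for NR_, 0.34 for AK) and the dashed lines mark 2-fold.

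Dim probes lay higher in 5/6Nx than bright ones, with medians of NM_ probes under other names running from 0.16 in the dimmest of 10 bins of signal to -0.06 in the brightest. The classes were therefore compared at matched signal, by weighting the comparison probes over 10 bins of mean value as the members were spread. NM_ probes with other names then had a median of 0.04 at the signals of the NR_ members and 0.04 at those of the AK members. The NR_ members exceeded that by 0.19 and the AK members by 0.30, while the NM_ members exceeded theirs by 0.01. Upwards 2-fold differences were found for 5.36% of the NM_ comparison probes at NR_ signals, against 15.3% of the NR_ members, and for 5.33% at AK signals, against 10.4% of the AK members. In 10 of 10 bins the AK median lay above that of the NM_ members, and in 9 of 10 bins the NR_ median did. The exception for NR_ was the brightest bin, which holds 11 NR_ members.

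Over all bins together, the medians of RIKEN names lay near those of other names of their own accession class. At matched signal, AK probes with other names had a median of 0.33, and the AK members differed from them by 0.01. NR_ probes with other names had a median of 0.19, and the NR_ members differed from them by 0.04. Within single bins the NR_ medians lay further apart and in either order, at 0.40 for members against 0.18 for other names in the second bin, 0.22 against -0.05 in the eighth and -0.06 against 0.10 in the brightest. The share of AK members at least 2-fold higher, 10.4%, lay below the 11.9% of AK probes with other names, while the NR_ share of 15.3% lay above their 10.6%. With 1 array a group these gaps between kinds of name have no error beyond the spread of probes, whose interquartile range was 0.71 for AK members and 0.74 for NR_ members. By GC content, the AK median was 0.37 in probes up to 36.7% GC, 0.37 in the middle group and 0.29 in probes from 43.3% GC. In the same groups the NR_ medians were 0.25, 0.11 and 0.27 and the NM_ medians -0.05, 0.004 and 0.05, so the order differed by class.

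**Figure D3:**
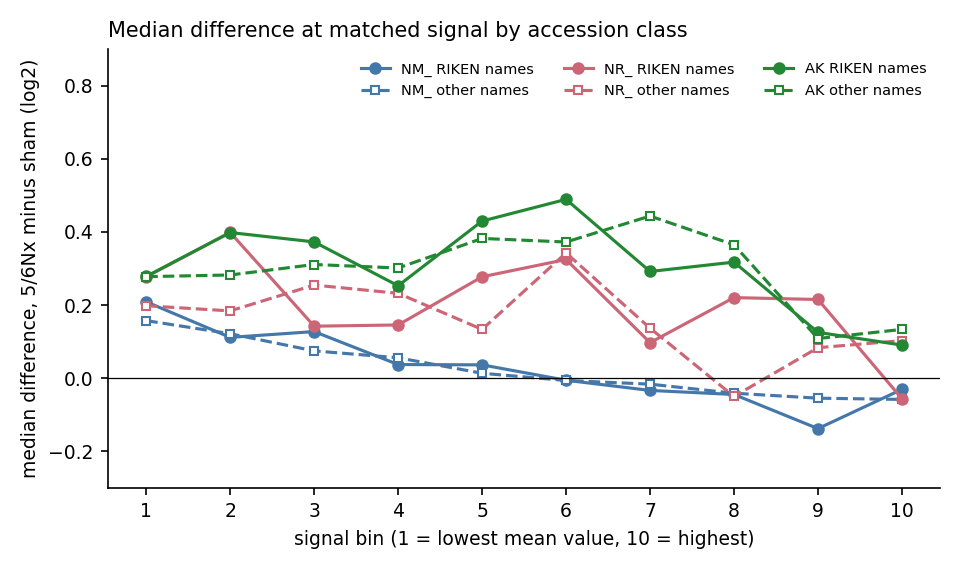
Lines give the median difference (log2, 5/6Nx minus sham) in each of 10 bins of mean value, from the dimmest probes (1) to the brightest (10), for members (filled circles) and other names (open squares) of each accession class. Both green AK lines and, in most bins, both red NR_ lines run above the blue NM_ lines. The NR_ lines of members and other names cross, with gaps such as 0.22 against -0.05 in bin 8.

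Among NM_ members, genes with known products stood at both ends. Zfas1 (1500012F01Rik), the host of small nucleolar RNAs now classed as non-coding, gave 14131 in sham and 42826 in 5/6Nx, a difference of 1.80, on a single probe. Aopep (2010111I01Rik), an aminopeptidase, gave 1365 and 3489, a difference of 1.56, and its other probe showed 0.67. 4932411N23Rik went from 791 in sham to 1987 in 5/6Nx, a difference of 1.53. Among dimmer probes Potegl (4931423N10Rik), of a family of ankyrin repeat proteins, gave 52.4 and 270.0, a difference of 2.57, the highest among NM_ members measured on both arrays. In the other direction 2810004N23Rik gave 3763 in sham and 1274 in 5/6Nx, a difference of -1.36. Ccdc167 (1110021J02Rik), a coiled-coil protein, gave 2744 and 983, a difference of -1.28, and its second probe showed -1.07. 1110032F04Rik gave 1426 and 563, a difference of -1.14. Saysd1 (1810063B07Rik), a dim member, gave 564 and 141, a difference of -1.80. Its probe overlaps, on the same strand, one that the array names only by a genomic interval and that showed -1.89.

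NR_ members reached larger differences than NM_ members in both directions. 4931440P22Rik gave 477 in sham and 1974 in 5/6Nx, a difference of 2.25, but its second measured probe showed 0.12. 2210416O15Rik gave 343 and 1416, a difference of 2.25, and 1810020O05Rik gave 1359 and 5421, a difference of 2.20, each on a single measured probe. The nearest neighbour of 2210416O15Rik, the transcription factor gene Vezf1 at 15366 bases on the same strand, showed -0.01. 2900057B20Rik, a dim member, gave 22.8 and 306, a difference of 3.95, the highest among measured NR_ members. At the low end 2610507I01Rik gave 1794 in sham and 268 in 5/6Nx, a difference of -2.54, whereas its neighbour Mrpl55, a mitochondrial ribosomal protein gene 7964 bases away on the other strand, showed -0.55. 6820431F20Rik gave 6493 and 2288, a difference of -1.30. 1110046J04Rik gave 1328 and 529, a difference of -1.13, and a probe 151 bases away on the same strand showed -0.92. 1600029I14Rik, a dim member, gave 256 and 30.1, a difference of -2.88.

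Among AK clones, E430022K19Rik stood apart at 147 in sham and 2092 in 5/6Nx, a difference of 4.03 or 16.4-fold. 1700080G18Rik gave 638 and 2928, a difference of 2.40, and 1700064H15Rik gave 278 and 1123, a difference of 2.22. Both are testis clones, and none of the 3 has a current name in the RefSeq table. The dimmer testis clone 4933430A20Rik gave 30.4 and 156, a difference of 2.56. Lower in 5/6Nx, B230343J05Rik, whose AK sequence is that of a diencephalon clone with another clone number, gave 916 and 323, a difference of -1.30. Its name is now a synonym of Fgf12, a growth factor family gene active inside neurons, whose own probe 2286 bases away on the same strand showed -0.69. 3110027N22Rik, an embryo head clone, gave 1591 and 620, a difference of -1.16. It lies 4740 bases from a probe of the transcription factor gene Zeb2 on the same strand, which showed -0.13. The hippocampus clone 2900064F13Rik gave 1932 and 786, a difference of -1.10, and the dim testis clone 4930553P18Rik gave 365 and 43.3, a difference of -2.87.

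**Figure D4:**
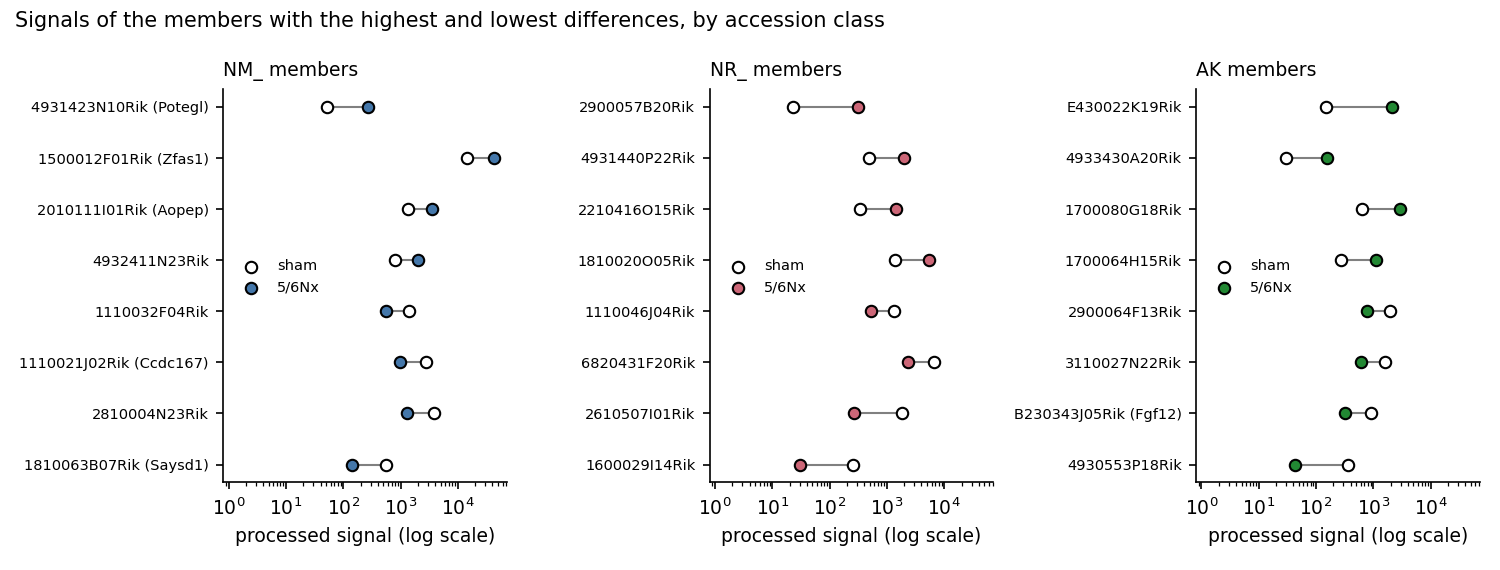
For the members with the highest and lowest differences in each accession class, open circles give the processed signal (log scale) in sham and filled circles that in 5/6Nx. E430022K19Rik moves from 147 to 2092, and 1600029I14Rik from 256 to 30.1.

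A further 111 member probes passed the detection flag on the 5/6Nx array alone, and 99 on the sham array alone. These are 3.01% and 2.69% of members, against 2.71% and 2.85% of all probes. Their difference can only be bounded: the detected value is set against the lowest detected value of the other array, or against the probe's own value there where that is higher. By this bound 44 members were at least 2-fold higher in 5/6Nx, of which 16 NM_, 5 NR_ and 15 AK, and 20 were at least 2-fold lower, of which 8 NM_, 4 NR_ and 3 AK. Over all probes the shares were 1% and 0.616%, against 1.20% and 0.543% of members. E130116L18Rik, a neonate eyeball clone, gave 19.2 in sham, not well above background, and 1113 in 5/6Nx, at least 66.8-fold higher. The Ensembl transcript 875 bases away on the same strand differed by 0.34. Prr32 (1110059M19Rik), a proline-rich protein gene, gave 18.4 and 185, at least 11.5-fold higher, and the NR_ member 2310001K24Rik gave 15.2 and 85.8, at least 5.69-fold higher. In the other direction 4930447C04Rik (NM_) gave 139 in sham and 11.3 in 5/6Nx, at least 7.10-fold lower. 4933402C06Rik (NR_) gave 127 and 4.14, at least 6.49-fold lower, and 4930453L07Rik (AK) gave 92.6 and 5.80, at least 4.72-fold lower.

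The tissue from which a clone was made ordered its detection in hippocampus. Of the AK members, 14 of 15 hippocampus clones were detected in sham (93.3%) and 13 (86.7%) in 5/6Nx. Clones from other brain regions followed at 79.9% and 83.3% of 204, embryo or neonate clones at 77.5% and 78.3% of 391, and clones from other adult tissues at 68.7% and 67.8% of 227. Testis clones came last at 43.7% and 46.9% of 350. Of 12 male germ cell marker genes, 7 were measured on both arrays and 4 on neither. Of those 7, 1 lay higher and 2 lay lower in 5/6Nx by 2-fold or more, with a median difference of 0.19 and a range from -1.18 to 1.83, and the summed signal of the list was 955 in sham and 1692 in 5/6Nx. The difference between the arrays did not follow the tissue order. Its median was 0.23 for hippocampus clones (13 measured), 0.29 for other brain, 0.38 for embryo or neonate, 0.30 for other adult tissues and 0.29 for testis. Nor did the share at least 2-fold higher follow it, at 15.4% for hippocampus clones (2 of 13), 4.38% for other brain regions (7 of 160), 10.74% for embryo or neonate (32 of 298), 11.8% for other adult tissues (18 of 152) and 14.5% for testis (20 of 138), against 5.17% of all measured probes. Names of the testis libraries were also detected less often across all accession classes, with 47.3% and 49.4% of the 490 probes beginning with 4930 and 55.5% and 55.9% of the 476 beginning with 1700, against 90.2% on both arrays for the 41 beginning with 2900.

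**Figure D5:**
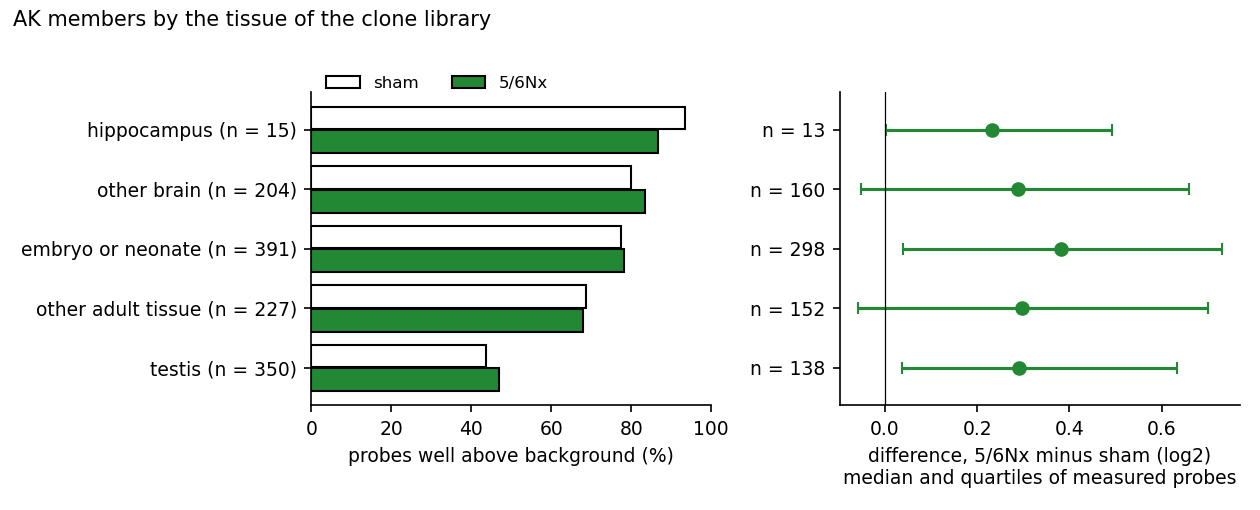
Left, the share of AK member probes well above background (percent) in sham (white) and 5/6Nx (green) by the tissue of the clone library. Right, the median difference (log2, 5/6Nx minus sham) with its quartiles over measured probes, which lies between 0.23 and 0.38 in every tissue.

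Whether a clone has since become a named gene went with its difference, but also with its accession class. Matched to RefSeq by accession, symbol or synonym, 1230 member probes now carry a gene symbol, 1670 keep the RIKEN name, 777 have no match and 5 carry another provisional name. The medians over measured probes were 0.02 for those with a gene symbol, 0.18 for those that keep the RIKEN name and 0.39 for those with no match. The first of these lies below 0 after quantile, median or lowess scaling and in the authors' table. At least 2-fold higher were 49 of 951 probes (5.15%), 102 of 951 (10.73%) and 48 of 534 (8.99%), against 5.17% of all measured probes. At least 2-fold lower were 34 (3.58%), 33 (3.47%) and 8 (1.498%), against 3.23%. Members with a gene symbol thus lay near the whole array in both directions. Name status overlapped with accession class, as 745 of the 951 measured gene symbol probes were NM_ and 448 of the 534 without a match were AK. Within NM_ the medians were 0.003 with a gene symbol and 0.06 with the RIKEN name kept, and within NR_ 0.08 and 0.27. Within AK they were 0.15, 0.28 and 0.41 for gene symbol, RIKEN name kept and no match. The 4 measured NR_ probes without a match had a median of -0.38, and the 2 of NM_ -0.02. Besides the NM_ members above, the rule named Mgarp (4930583H14Rik), a mitochondrial protein gene, at 45.4 in sham and 188 in 5/6Nx, a difference of 2.25. Lrrc74b (4930451C15Rik), a leucine-rich repeat gene, showed 2.14, with 0.16 on its other probe. On the low side were L3hypdh (2810055F11Rik), an enzyme of hydroxyproline breakdown, at 446 and 116 with a difference of -1.75, and at -1.43 each Ccdc173 (4930578N16Rik) and Radx (D330045A20Rik), which binds single-stranded DNA.

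Gene families that took over many RIKEN names gave the following, with the families picked after their values had been seen. For scale, of all measured probes 5.17% reached 2-fold upwards and 3.23% downwards, with a median of 0.07. Of 26 measured probes of cilia and flagella associated (Cfap) genes, 5 (19.2%) were at least 2-fold higher and 0 lower, with a median of 0.23. With median scaling 1 of them was higher, and with normexp or no background subtraction 2. Cfap126 (1700009P17Rik) gave 1064 in sham and 2057 in 5/6Nx on one probe and 405 and 749 on the other, differences of 1.15 and 1.09. Cfap74 (2010015L04Rik) gave 45843 and 84447, a 2-fold call, and its dimmer probe 158 and 274, just under 2-fold. The other called probes were not matched by the second probe of the gene. Cfap206 (1700003M02Rik) showed 1.88 and -0.05, and Cfap54 (4930485B16Rik) 1.09 and 0.13. The 11 measured markers of ependyma and motile cilia had a median of 0.08, with 1 at least 2-fold lower and 0 higher. Their summed signal was 6924 in sham and 5989 in 5/6Nx. Coiled-coil (Ccdc) genes had a median of -0.20, with 3 of 24 probes higher (12.5%) and 5 lower (20.8%). With normexp or no background subtraction 1 was higher and 1 lower. The lower probes of the main setting came from Ccdc173 and, with 2 probes each, from Ccdc167 and Ccdc171. Of the higher ones, Ccdc169 (A730037C10Rik) gave 1.13, but its other measured probe showed -0.10. Assembly factors and small subunits of the mitochondrial respiratory chain and related inner-membrane proteins had a median of -0.25 over 20 probes of 13 genes, with 1 lower and 0 higher. Among them Coa6 (1810063B05Rik), for the assembly of cytochrome oxidase, gave 5688 and 2685, a difference of -0.88. Uqcc2 (2900010M23Rik), for complex III, gave 62918 and 39903, a difference of -0.46. The 1 called lower, a probe of Timmdc1 (4930455C21Rik) at -2.74, was not matched by its 2 other probes, at -0.24 and 0.04. Transcripts named for the strand opposite a gene had a median of 0.10 over 45 probes, with 5 higher (11.1%) and 2 lower (4.44%), and this median lies below 0 after quantile, median or lowess scaling and in the authors' table. The 9 measured probes of genes whose symbol has the Snhg or microRNA host gene form had a median of 0.35 with 0 at 2-fold in either direction, the highest being Snhg16 (1810032O08Rik) at 0.74 on its brighter probe. Zfas1, also a host gene, is not in this list by its symbol and stood higher at 1.80. Testis-expressed and spermatogenesis-associated (Tex or Spata) genes had a median of 0.36 over 17 probes, with 1 higher and 0 lower. Small integral membrane (Smim) genes had a median of -0.22 over 19 probes, with 0 at 2-fold. Transmembrane (Tmem) genes stood at -0.02 over 30 probes, with 1 higher and 0 lower, and Fam genes at 0.03 over 38 probes, with 1 higher and 2 lower. The Tmem median lies above 0 with normexp or no background subtraction, and the Fam median below 0 with median scaling.

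Several probes for 1 name show how far the differences of a name spread on these 2 arrays. With 1 array per group, that spread holds no variation between animals or arrays and gives no error for the difference between the groups. For 329 names with 740 measured probes the median SD of the difference between probes of a name was 0.21, and 213 names (64.7%) had all probes in 1 direction. Spots of the same probe agreed more closely, with a median SD of 0.06 on each array over the 16 measured probes printed in 10 spots. Of 26 names whose mean difference reached 2-fold, 24 had all probes in 1 direction. These names were picked by the mean of the same probes, which favours 1 direction, so this count does not measure agreement. All probes were at least 2-fold higher for 4 names. These were 1700125H20Rik (1.92 on both probes), Ncmap (A330049M08Rik, 1.19 and 1.37), a myelin protein gene of peripheral nerve, D830050J10Rik (1047 to 2873 on its brighter probe, a difference of 1.66) and Cfap126. All probes were at least 2-fold lower for 6 names, among them 9530057J20Rik (-1.92 and -1.75), Ccdc171 (4930473A06Rik, -1.32 and -1.22) and Ifit3b (I830012O16Rik, -1.26 and -1.02), an interferon-induced gene. Probes of 1 name called in opposite directions were found for 1700008O03Rik, at -1.24 and 1.27.

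Probes of a name stood at least 2 apart on the log2 scale for 11 names, and in 10 of these the probes carried different accessions. 1500011B03Rik, singled out after its values were seen, has a probe for each of 2 NR_ records. One gave 16178 in sham and 11121 in 5/6Nx, a difference of -0.34, and the other 3213 and 16508, a difference of 2.56. Likewise Proser2 (5430407P10Rik) showed 0.43 on its NM_ probe, from 362 to 424, and -2.48 on an AK probe, from 297 to 46.1. 5930434B04Rik had 1 Ensembl probe at -1.69, from 401 to 108, and 5 RefSeq or clone probes from -0.00017 to 0.63. C530008M17Rik showed -0.54 on its bright NM_ probe, from 3033 to 1810, and 1.68 on a dim Ensembl probe, from 26.9 to 74.9. A mean over probes would show none of these values.

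Members resembled a neighbouring probe of another name in their difference mainly where both lay on the same strand. By the mm9 coordinates, 1007 members had a probe of another name within 5 kb, and in 636 pairs both were measured. Over 246 same-strand pairs the differences correlated at Pearson's r = 0.43 and Spearman's rho = 0.43, and over 390 opposite-strand pairs at r = 0.11 and rho = 0.09. These are descriptions across pairs of probes that share the same 2 arrays and in part the same transcript, and a pair of 2 members is counted from each side. The same-strand r was 0.57 for NR_ (45 pairs), 0.26 for AK (108 pairs) and 0.30 for NM_ members (64 pairs), and on the opposite strand it was -0.01, 0.30 and 0.02. Other names gave 0.48 and 0.12 over 3880 and 7787 pairs. Within 1 kb the same-strand r of members was 0.71, and within 20 kb it was 0.28. Beside an NM_ neighbour the AK members kept a higher median: on the same strand 0.13 against -0.05, higher in 28 of 47 pairs, and on the opposite strand 0.18 against -0.03, higher in 36 of 52 pairs. In these pairs r was 0.08 on the same strand and 0.38 on the opposite strand.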

How the data were processed

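Per the labels' protocols, total RNA of each sample was amplified, labelled with Cy3 and hybridised to a 1-colour Agilent array. The deposited scanner files hold intensity values per spot, background-subtracted and detrended within the array, with detection flags as a further column, and, per the file headers, came from Feature Extraction 10.7.1.1 (9.5.1.1 per the submitters' processing notes). The deposited series table holds intensity values with equal sorted columns, and its normalization is not given in the sources used here. Control spots and outlier spots (105 on the sham array, 97 on the 5/6Nx array) were removed. The log2 of each deposited intensity was expressed against that array's 75th percentile (1453 in sham, 1264 in 5/6Nx) and averaged over spots of a probe. Well above background were 72.7% of 59305 spots in sham and 72.5% in 5/6Nx. The number of arrays limits the precision, and no test or p-value was computed.

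Members were split by accession prefix, and a probe was measured where it was well above background on both arrays. Signal was matched in 10 bins. Current names came from a RefSeq table (GRCm38.p6), which matched 1968 member probes by accession, 700 by symbol and 237 by synonym. Coordinates are those of the scanner files (mm9), which place 3639 of 3682 members. The members, lists and tests were chosen with earlier results of these data known. In each class the text names, among members whose measured probes lie in 1 direction, the 3 highest and 3 lowest of those brighter than the median measured probe, 1 each way among dimmer ones, the 2 brightest and the largest bound each way. It also names the 4 highest and 4 lowest with a current symbol. Others are named after their values were seen. Alternatives were quantile, median and lowess (span 0.3) scaling, normexp (limma 3.58.1, offset 50), no background subtraction, the authors' table, outlier spots kept, other filters, thresholds, bins, matching signals and neighbour distances, and 1 probe per name. The calculation was tested on simulated data. Python 3.11.15, pandas 2.3.3 and statsmodels 0.14.6 were used.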

Additional observations from a re-analysis of the deposited data

How the results depend on the processing

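All triples are for NM_, NR_ and AK members in that order. The main values were medians of 0.01, 0.23 and 0.34, with 48, 56 and 79 probes higher, 38, 14 and 16 lower, and an excess over NM_ probes of other names at matched signal of 0.01, 0.19 and 0.30. Quantile normalization gave medians of -0.044, 0.13 and 0.22. Lowess gave medians of -0.049, 0.13 and 0.21. It gave 45, 17 and 27 lower. The authors' table gave medians of -0.043, 0.13 and 0.22. Median scaling gave medians of -0.15, 0.072 and 0.18. It gave 37, 45 and 47 higher. None of these 4 moved an excess, all of which stayed within the interval of the main value. That is a 95% interval of the median over member probes. It describes the spread of probes on these 2 arrays and gives no error for the difference between the groups. Median scaling shifts members and comparison probes alike, so its excess could not change. Normexp background correction gave medians of 0.030, 0.20 and 0.28, 29, 33 and 39 higher, 15, 7 and 8 lower and an excess of -0.0051, 0.12 and 0.20. No background subtraction gave medians of 0.044, 0.20 and 0.28, 27, 31 and 36 higher, 13, 6 and 6 lower and an excess of 0.0013, 0.11 and 0.19. No filter on dim probes gave medians of 0.090, 0.25 and 0.27, 112, 99 and 153 higher, 72, 44 and 49 lower and an excess of 0.019, 0.070 and 0.13. The gap in signal between AK and NM_ members, -1.87, became -1.54 and -1.49 under the first and second of these. Above the median signal the medians were -0.043, 0.20 and 0.34, with 16, 16 and 23 higher, 11, 4 and 4 lower and an excess of -0.0069, 0.23 and 0.36. The weaker detection flag raised the share detected on both arrays from 75.4%, 56.9% and 64.1% to 84.7%, 74.4% and 79%, with 82, 78 and 121 higher and 60, 27 and 30 lower. At 1.5-fold, 145, 98 and 235 were higher and 111, 29 and 55 lower. At 3-fold, 12, 24 and 25 were higher and 4, 4 and 5 lower. Of all measured probes, 5.17% were higher and 3.23% lower in the main setting. These shares were 3.52% and 4.64% with median scaling and 3.76% and 4.13% with lowess. They were 2.49% and 1.72% with normexp, and 2.30% and 1.60% without background subtraction. For the other filters and thresholds the all-probe share is not given here, so those counts cannot be read against the whole array. The NM_ share higher was 1.11 times that of matched probes at 2-fold and 0.872 times at 3-fold. The same-strand neighbour r was 0.71 within 1 kb and 0.28 within 20 kb. Matching on GC content too, chosen after seeing the data, gave an excess of 0.0060, 0.20 and 0.32. In every setting tried the NR_ and AK excess stayed above 0, from 0.070 to 0.23 and from 0.13 to 0.36. For the named members 229 values stayed within the spread between probes and 44 moved by more. Median scaling lowers all named values alike by less than that spread, and keeping outlier spots changed none of them. The values under these settings were therefore bound to stay within it. The sign changed for 2 named members, in 5 values: 2610028H24Rik, at 0.16, became -0.15 with quantile normalization and in the authors' table, and 1700028B04Rik, at 0.060, became -0.029 in both and -0.098 with median scaling. For the clone library and name groups 31 of 56 values moved. There the sign changed in 4, all of the gene symbol median of 0.020, which became -0.030 (quantile), -0.14 (median scaling), -0.032 (lowess) and -0.029 (authors' table). The NM_ excess of 0.01 also fell below 0 when matched on the sham value. Signals near background limit the precision of the dim NR_ and AK members. No paired analysis was possible because sham and 5/6Nx are 1 array each, and for the same reason no replicate could be left out.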

Other observations

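RIKEN clone transcripts were detected at unlike rates across chromosomes, which were not set against all probes of each chromosome. Over the whole array 72.1% of probes were well above background in sham and 71.9% in 5/6Nx, and of all members 69.0% and 69.3%. The shares well above background ran from 56.7% in sham and 59.6% in 5/6Nx for the 171 probes on chromosome 14, and 56.8% and 58.9% for the 146 on X, to 78.8% and 77.0% for the 217 on chromosome 4. The median difference was above 0 on every mapped chromosome, from 0.07 on chromosomes 16 and 17 to 0.24 on chromosomes 10 and 12, against 0.07 over all measured probes. With each array scaled to its median, which lowers every difference alike, several of these medians would lie below 0. The accession classes were not balanced between chromosomes in this comparison.

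Among the AK clones the array separates 899 probes of clones described as unclassifiable from 201 of clones described as hypothetical proteins. Their detection was alike, at 66.6% and 63.7% in sham and 68.5% and 65.7% in 5/6Nx, while the median difference was 0.37 for the unclassifiable and 0.22 for the hypothetical. At least 2-fold higher were 57 of 580 measured probes (9.83%) and 18 of 123 (14.6%), against 5.17% of all measured probes. At least 2-fold lower were 11 (1.90%) and 4 (3.25%), against 3.23%. The median and the share higher thus stood in opposite order, with few called probes and 1 array per group. The 88 probes of clones with other descriptions had a median of 0.27, with 4 higher (6.78%) and 1 lower (1.69%). NM_ members with AATAAA or ATTAAA in the probe were measured on both arrays more often than those without, at 82.0% against 74.2%, whereas the shares were 58.5% and 56.4% for NR_ and 62.0% and 64.9% for AK members.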
